A study of Rattus norvegicus with 64 samples.

Results

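The genes described are 10 of the 17260 genes counted in the rat entorhinal cortex. They were chosen by name as members of the basic helix-loop-helix (bHLH) system that drives neurons to differentiate and of its inhibitors. They fall into 3 kinds. Neurod1, Neurod2, Neurod6 and Bhlhe22 are DNA-binding bHLH factors of the neuronal lineage, Tcf4 and Tcf12 are E proteins, and Id1, Id2, Id3 and Id4 are Id inhibitors. All 10 passed the filter on low counts.

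A bHLH factor such as Neurod6 binds DNA as a dimer with an E protein, at a short motif called the E-box. Id proteins have the helix-loop-helix domain but no basic region, so they bind E proteins and keep them off DNA. In the cortex the NeuroD genes and Bhlhe22 are known from excitatory projection neurons, E proteins are expressed widely, and Id1 and Id3 are known targets of bone morphogenetic protein (BMP) signals in endothelium, astrocytes and meninges.

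RNA was sequenced in 64 samples from Long Evans rats, for which the labels name no treatment or altered gene. The medial (MEC) and the lateral entorhinal cortex (LEC) were cut into layer II (LII) and the deeper layers III to VI together (LDeep), at postnatal day 2 (P2), P9, P23 and P45. Each of the 4 combinations of region and layer held 5 samples of age P2, 4 of age P9, 3 of age P23 and 4 of age P45, so there were 16 groups, and 32 samples per region. Layers were dissected by hand from brain slices, so each sample mixed all cells of the cut tissue, and fewer cells of a type and less RNA per cell cannot be told apart. Nothing in the labels says that equal numbers in different groups are 1 animal, and p-values measure the spread between samples only.

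The counts on genes summed to between 3894334 and 11439143 per library. The dissection showed in the markers. Of 3 entorhinal LII markers, 3 were higher in LII, and of 7 deep layer markers, 7 were lower, with summed levels of 701 to 2007 against 142 to 1242 CPM (counts scaled to a common library total) for the first and 118 to 400 against 380 to 1136 CPM for the second. Markers of the brain surface differed too. Of 12 meningeal fibroblast genes 11 were higher in LII, and their summed level had a median of 1114 CPM in LII and 132 CPM in LDeep. Among all genes tested, 23.5% were higher and 30.5% lower in LII (edgeR, adjusted p under 0.05).

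Some libraries stood apart. The library labelled MEC LII P2 replicate 1 held 6 counts of Slc17a7 (0.63 CPM), the vesicular glutamate transporter of cortical excitatory neurons, against 252 to 364 CPM in the other 4 of its group, and 141 CPM of Foxj1, a gene of ciliated cells, against 2.1 to 3.8 CPM. In 4 libraries (MEC LII P23, MEC LDeep P45, LEC LII P45 and LEC LDeep P45, each replicate 2), cerebellar granule cell genes summed to 90.6 to 656 CPM. In 3 libraries (MEC LDeep P2 replicate 4, LEC LII P45 replicate 2 and LEC LDeep P45 replicate 4) the ribosomal RNA gene Rn45s was above 1000 CPM, and MEC LDeep P2 replicate 1 held 303 CPM of the collagen gene Col1a1, which in the other 3 LDeep libraries of its group not named here lay between 0.70 and 1.88 CPM. Results are given for all 64 libraries and, where they differ, without these 8.

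E-boxes of the form CANNTG stood in the promoters of 5 of the 9 members matched by symbol in the RefSeq promoter table, which covers 250 bases before to 50 bases after each start on GRCr8. The motif reads the same on both strands, and 72.1% of 33469 promoters held at least 1. The promoters of the NeuroD genes and of Id1 are shown because the first are factors that bind this motif and the second is an inhibitor of that binding, with CANNTG in capitals.
Neurod6 (chr4:86180106-86180405, minus strand): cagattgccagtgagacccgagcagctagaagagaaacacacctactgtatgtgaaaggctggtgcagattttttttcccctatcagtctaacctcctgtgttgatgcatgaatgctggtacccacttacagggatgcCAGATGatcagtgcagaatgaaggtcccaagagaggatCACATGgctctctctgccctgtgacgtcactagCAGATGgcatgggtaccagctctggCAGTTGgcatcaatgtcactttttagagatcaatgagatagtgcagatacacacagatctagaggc
Neurod2 (chr10:83824228-83824527, minus strand): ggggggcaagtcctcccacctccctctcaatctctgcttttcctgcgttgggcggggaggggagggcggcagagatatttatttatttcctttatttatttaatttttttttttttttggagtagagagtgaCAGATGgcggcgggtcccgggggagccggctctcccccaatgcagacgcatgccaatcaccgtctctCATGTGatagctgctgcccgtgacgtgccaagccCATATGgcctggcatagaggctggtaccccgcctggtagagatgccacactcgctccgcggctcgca
Neurod1 (chr3:84770405-84770704, minus strand): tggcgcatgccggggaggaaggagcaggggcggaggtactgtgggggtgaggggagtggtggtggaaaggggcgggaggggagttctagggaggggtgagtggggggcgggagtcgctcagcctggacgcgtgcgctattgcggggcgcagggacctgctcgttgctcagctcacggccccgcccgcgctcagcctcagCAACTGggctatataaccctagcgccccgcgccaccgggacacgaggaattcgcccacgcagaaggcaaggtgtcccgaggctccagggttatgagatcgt
Id1 (chr3:161671314-161671613, plus strand): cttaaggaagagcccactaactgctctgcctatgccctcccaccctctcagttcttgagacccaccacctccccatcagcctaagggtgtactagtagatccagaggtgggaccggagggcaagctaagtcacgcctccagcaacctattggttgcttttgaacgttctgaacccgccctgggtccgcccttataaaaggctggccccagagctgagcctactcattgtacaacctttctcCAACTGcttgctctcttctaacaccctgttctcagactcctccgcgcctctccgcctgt
Neurod6 held 4 matches, a number reached by 5.79% of all promoters, and Neurod2 held 3, reached by 16.6%. CAGATG stood in the Neurod6 promoter at -112 and -41 and in the Neurod2 promoter at -118, counted to the first base of the motif from the start. Of all promoters, 16.6% held CAGATG or its reverse complement. Neurod1, Id1 and Id2 held 1 each, and Id3, Id4, Tcf4 and Tcf12 held none in this window. These are matches of letters and not measured sites.

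Between the early ages (P2/P9) and the late ages (P23/P45), 5 of the 10 members fell and 4 rose, whereas among all 12521 genes tested 40.6% were lower and 41% higher (81.6% in all, BH adjusted p under 0.05, edgeR quasi-likelihood test). The 3 largest changes were those of Bhlhe22, which fell, of Id4, which rose, and of Neurod1, whose rise was lost without the libraries with granule cell genes. Id3, counted as risen, had close means at P2 (5.64 log2 CPM) and P23 (5.69) and a lower one at P9 (5.02). The median LFC (log2 fold change) of the members was -0.17 and that of all genes 0.01. Without the 8 libraries 5 members fell and 3 rose (83.1% of all genes called).

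Between LII and LDeep, 3 members were higher in LII (Id3, Id1 and Tcf12) and 2 lower (Neurod2 and Neurod6), where 23.5% of all genes were higher and 30.5% lower (54% in all). Without the 8 libraries Tcf4 and Bhlhe22 joined those higher in LII (52.7% of all genes called). Between MEC and LEC, 2 members were higher in the MEC (Neurod6 and Tcf4) and 4 lower (Bhlhe22, Neurod1, Id2 and Tcf12), where 8.87% of all genes were higher and 6.53% lower (15.4% in all), and the same 6 were called without the 8 libraries (17.7% of all genes called).

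**Figure D1:**
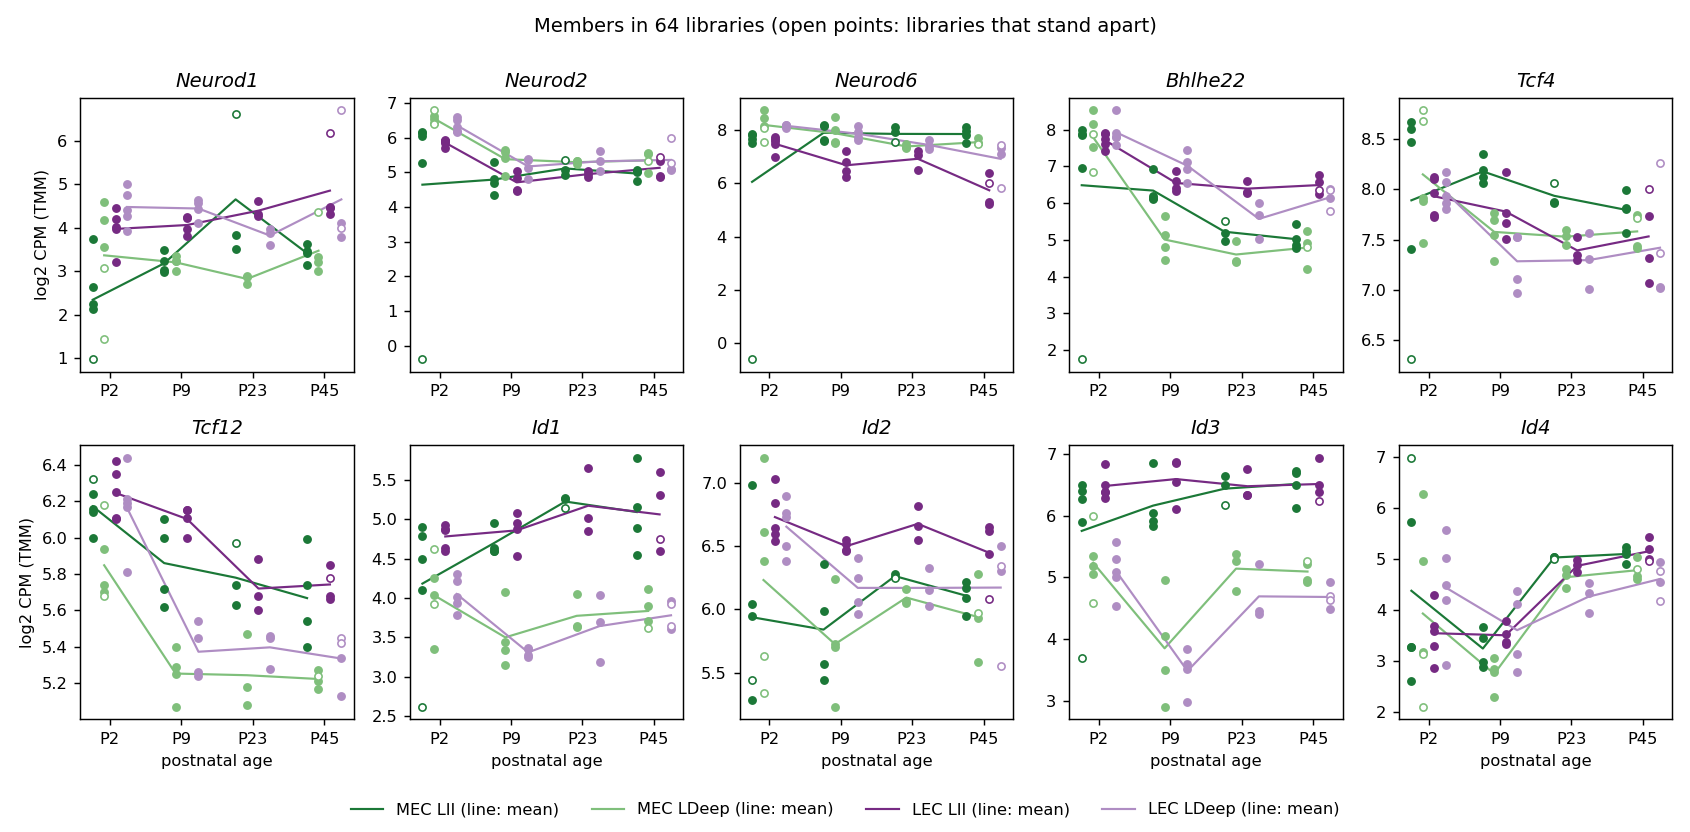
Level of each member in the 64 libraries, as log2 CPM after TMM scaling, at 4 ages (horizontal axis) in MEC LII, MEC LDeep, LEC LII and LEC LDeep. Points are libraries, lines join group means, and open points are the 8 libraries that stand apart. The means of Bhlhe22 are highest at P2 in all 4 combinations of region and layer, Id3 in LDeep is lowest at P9, and the mean of Neurod6 in LEC LII lies below those of the other groups from P9.

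**Figure D2:**
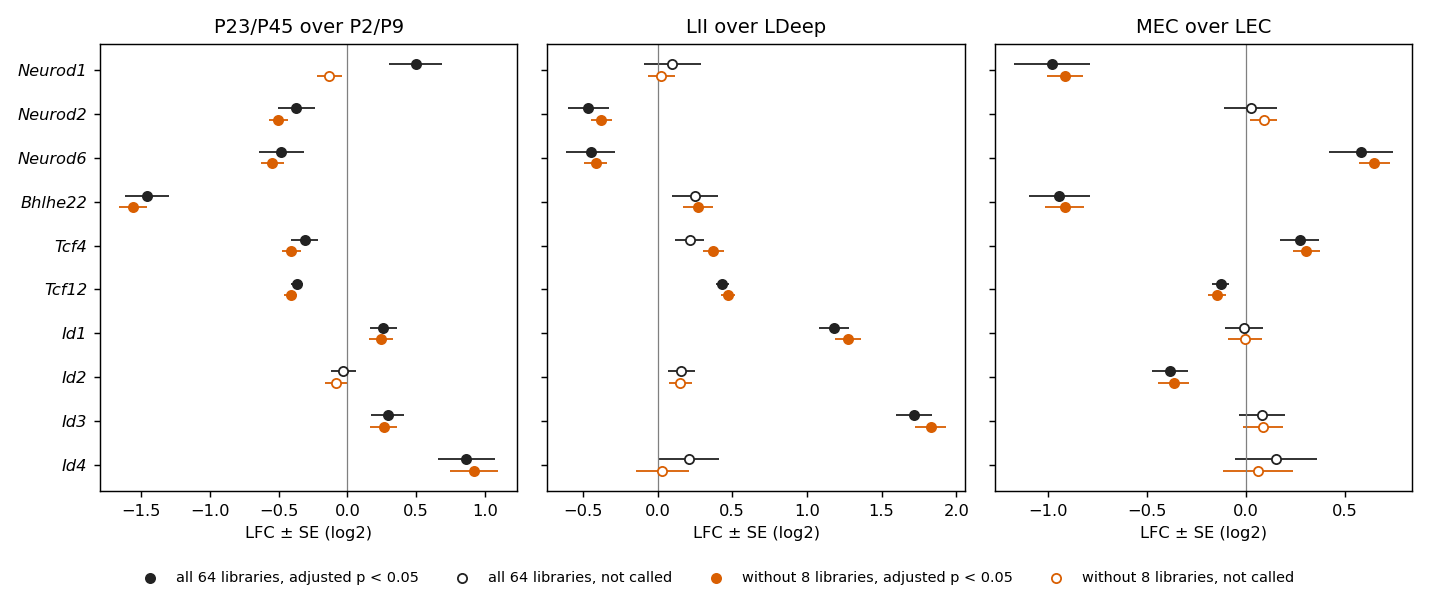
LFC with its SE for each member between late and early ages, between layers and between regions, in all 64 libraries (black) and without the 8 libraries (orange). Filled points have an adjusted p under 0.05. Id1 and Id3 show the largest layer differences, Bhlhe22 the largest age difference, and Neurod1 and Bhlhe22 the largest region differences.

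Per length of counted exons, the order of the members over all libraries was led by Tcf4, Id2 and Neurod6. Their medians were 106, 105 and 96.7 RPKM (reads scaled by exon length and library total), with middle ranges that overlapped (86.2 to 127, 86.0 to 127 and 81.0 to 128 RPKM). Id3 followed with 55.2 RPKM. Bhlhe22 (26.2), Neurod2 (21.9), Id1 (21.1) and Tcf12 (20.6 RPKM) lay close to each other, and Id4 (12.9) and Neurod1 (7.86 RPKM) were lowest. The order changed with age, since Bhlhe22 lay above Id3 at P2, with a median of 73.1 against 56.5 RPKM, and below Id4 at P45, with 15.6 against 19.0 RPKM.

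Bhlhe22 (chr2:102685513-102688624 on Rn6, plus strand, 1 exon) encodes a bHLH repressor of projection neurons. It fell by 1.46 (SE 0.16) on the log2 scale from P2/P9 to P23/P45, a 2.75-fold change (adjusted p = 4.7e-12). In MEC LDeep its log2 CPM was 7.89, 8.15, 8.53, 6.85 and 7.53 at P2, 4.44, 4.81, 5.66 and 5.12 at P9. It was 4.42, 4.98 and 4.40 at P23, then 4.21, 4.8, 4.91 and 5.24 at P45. The P2 libraries of MEC LDeep thus lay above all its later libraries, which overlapped among themselves. In LEC LII it was 7.75, 7.88, 7.92, 7.43 and 7.60 at P2, 6.32, 6.60, 6.41 and 6.86 at P9. Its P23 libraries held 6.27, 6.61 and 6.30 and its P45 libraries 6.25, 6.36, 6.58 and 6.77, so that every P2 library lay above all later ones, which overlapped. Over the 4 combinations of region and layer it fell by 1.48 (SE 0.21) from P2 to P9 and by 0.80 (SE 0.24) from P9 to P23, with adjusted p of 1.4e-08 and 0.00271.

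Bhlhe22 was also lower in the MEC than in the LEC, with an LFC of -0.94 (SE 0.16, adjusted p = 6.2e-06). At P2 the regions overlapped. At P45 MEC LII held 4.85, 5.02, 5.42 and 4.78 and LEC LII 6.25, 6.36, 6.58 and 6.77 log2 CPM, and the LDeep values were 4.21, 4.8, 4.91 and 5.24 in the MEC and 6.38, 5.78, 6.13 and 6.35 in the LEC. Every LEC library thus lay above every MEC library at P45. The change of the region difference with age was -0.62 (SE 0.31) and was not called in all 64 libraries (adjusted p = 0.302, 4.38% of all genes called). Without the 8 libraries it was -0.83 (SE 0.20, adjusted p = 0.00616, 5.55% of all genes called), and without the library labelled MEC LII P2 replicate 1 alone it was -0.69 (adjusted p = 0.0196). That library held 1.75 log2 CPM of Bhlhe22, below the 6.95 to 8.0 of the other 4 in its group. A layer difference of Bhlhe22 was not called in all 64 libraries (LFC 0.25, SE 0.15, adjusted p = 0.163), but was called without the 8 (0.27, SE 0.10, adjusted p = 0.0185). Without the 8 it was called in the MEC (0.42, SE 0.14, adjusted p = 0.0166) and not in the LEC (0.13, adjusted p = 0.503). In the LEC at P9 the mean was 6.548 log2 CPM in LII and 7.015 in LDeep. The layer difference changed with age by 0.86 in a fit of the LEC samples only (adjusted p = 0.0122), and by 0.46 in all 64 (adjusted p = 0.421).

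Neurod6 (chr4:85911861-85915107, minus strand) marks pyramidal neurons of the neocortex and hippocampus. It was higher in the MEC than in the LEC (LFC 0.58, SE 0.16, adjusted p = 0.00817) over both layers. At P45 MEC LII held 7.96, 7.81, 7.50 and 8.11 log2 CPM and LEC LII 5.24, 6.01, 6.39 and 5.31. At P9 the values were 7.63, 7.59, 8.18 and 8.16 in MEC LII and 6.25, 6.46, 7.21 and 6.78 in LEC LII, and at P23 they were 7.91, 7.55 and 8.09 against 6.50, 7.20 and 7.05. MEC LII thus lay above LEC LII in every library from P9 onwards. In LDeep the regions overlapped at P2, P9 and P23, with 7.32, 7.46 and 7.36 in the MEC and 7.39, 7.29 and 7.62 in the LEC at P23. At P45 every MEC LDeep library (7.69, 7.47, 7.50 and 7.50) lay above those of LEC LDeep (7.08, 7.42, 7.33 and 5.83), the lowest of which came from the library with 2055 CPM of Rn45s.

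Within the LEC, Neurod6 was lower in LII than in LDeep (LFC -0.88, SE 0.23, adjusted p = 0.00182, 38.6% of all genes called), whereas within the MEC the LFC was -0.01 (SE 0.23, adjusted p = 0.972, 40.8% of all genes called). The difference between these layer differences was 0.87 (SE 0.32). It was not called in all 64 libraries (adjusted p = 0.211, 1.25% of all genes called). Without the 8 libraries it was 0.97 (SE 0.16, adjusted p = 0.000105), and Neurod6 was then the 1 member called (1.72% of all genes called). Leaving out the library labelled MEC LII P2 replicate 1 alone gave 0.94 (adjusted p = 0.000686). That library held 4 counts of Neurod6, or 0.42 CPM, against 184 to 247 CPM in the other 4. Slc17a7 was at 6 counts in it. Neurod6 fell with age (LFC -0.48, SE 0.16, adjusted p = 0.00642), and in a fit of the MEC samples only the age difference was -0.21 (adjusted p = 0.519). By limma voom neither the region difference of Neurod6 (0.40, adjusted p = 0.365) nor its layer difference in the LEC (-0.80, adjusted p = 0.106) nor its age difference (-0.35, adjusted p = 0.229) was called, and over both regions the layer difference was -0.54 (adjusted p = 0.0958).

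**Figure D3:**
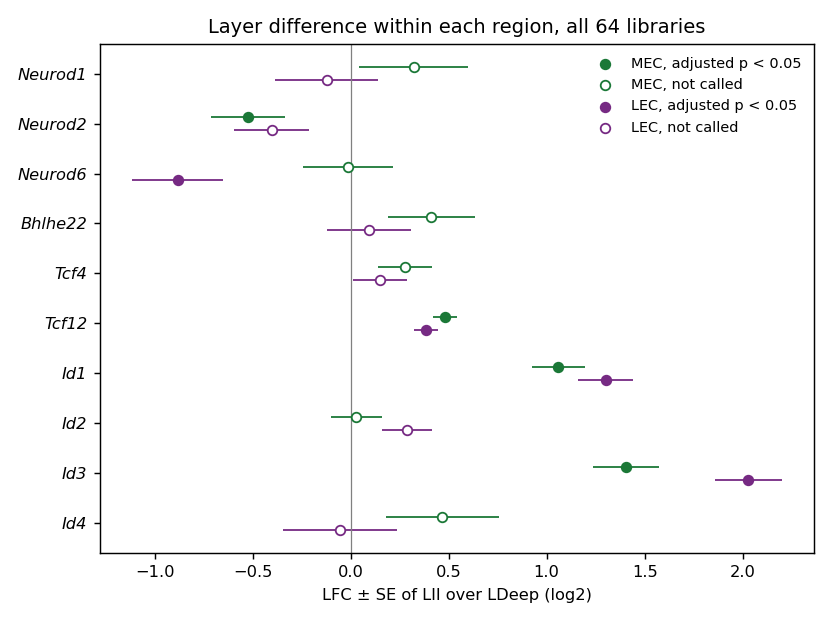
LFC of LII over LDeep with its SE for each member in the MEC (green) and in the LEC (purple), all 64 libraries. Filled points have an adjusted p under 0.05. Neurod6 is near 0 in the MEC and at -0.88 in the LEC, while Id1, Id3 and Tcf12 are above 0 in both.

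Neurod2 (chr10:86280865-86282683, minus strand) acts in the maturation of cortical projection neurons and their synapses. It fell from P2 to P9 by 1.07 (SE 0.18, adjusted p = 1.0e-06), 2.10-fold, and no later step was called. In LEC LDeep it went from 6.18, 6.52, 6.59, 6.32 and 6.21 log2 CPM at P2 to 5.13, 4.82, 5.40 and 5.35 at P9, with no overlap. Its P23 libraries there (5.32, 5.62 and 5.03) and P45 libraries (5.06, 5.28, 5.11 and 6.0) spread around the P9 values. In LII it was lower than in LDeep (LFC -0.46, SE 0.14, adjusted p = 0.00332). At P2 LEC LII held 5.72, 5.90, 5.91, 5.93 and 5.84, below every LEC LDeep library. The LFC was -0.52 (SE 0.19, adjusted p = 0.0238) in the MEC and -0.40 (SE 0.19, adjusted p = 0.0916) in the LEC, and the difference of -0.12 (SE 0.27) was not called (adjusted p = 0.903). With the 8 libraries left out, the LEC difference was called too (-0.31, SE 0.10, adjusted p = 0.00972). Its regions were close, with an LFC of 0.02 (SE 0.14, adjusted p = 0.947). The library labelled MEC LII P2 replicate 1 held -0.39 log2 CPM, or 5 counts. With limma voom and quantile normalization the age difference of -0.26 was not called (adjusted p = 0.247).

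Neurod1 (chr3:66414321-66417617, minus strand) drives neuronal differentiation in many tissues and is strongly expressed in granule cells of the cerebellum and dentate gyrus. It was lower in the MEC than in the LEC, with an LFC of -0.98 (SE 0.19, adjusted p = 0.000123), or 1.97-fold. At P9 the 4 libraries of MEC LII held 3.23, 3.48, 3.03 and 2.98 log2 CPM and those of MEC LDeep 3.00, 3.23, 3.24 and 3.34, while LEC LII held 4.24, 4.23, 3.81 and 3.97 and LEC LDeep 4.64, 4.58, 4.11 and 4.44. The regions did not overlap at P9. Without the 8 libraries the LFC was -0.91 (SE 0.09, adjusted p = 9.4e-11).

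The age difference of Neurod1 rested on the libraries with granule cell genes. In all 64 libraries Neurod1 was 0.50 higher at P23/P45 (SE 0.19, adjusted p = 0.0155). In MEC LII P23 replicate 2 it reached 95.3 CPM against 10.9 and 13.6 CPM in the other libraries of the group, and Gabra6, a receptor subunit of cerebellar granule cells, reached 123 CPM against 0.25 and 0.27. In LEC LDeep P45 replicate 2 Neurod1 was at 102 CPM and Gabra6 at 212 CPM, and in LEC LII P45 replicate 2 they were at 71.8 and 127 CPM. MEC LDeep P45 replicate 2 held 19.7 CPM of Neurod1 with 31.7 CPM of Gabra6. Over the 56 libraries outside the 8 Neurod1 stayed between 4.36 and 32.5 CPM and Gabra6 between 0 and 2.45 CPM. The 4 granule cell genes (Fat2, Gabra6, Barhl2 and Cbln3) were chosen after these values were seen, and their part in the Neurod1 values was not tested. Without these 4 libraries the age difference of Neurod1 was -0.04 (adjusted p = 0.77), and without all 8 it was -0.13 (SE 0.09, adjusted p = 0.178).

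**Figure D4:**
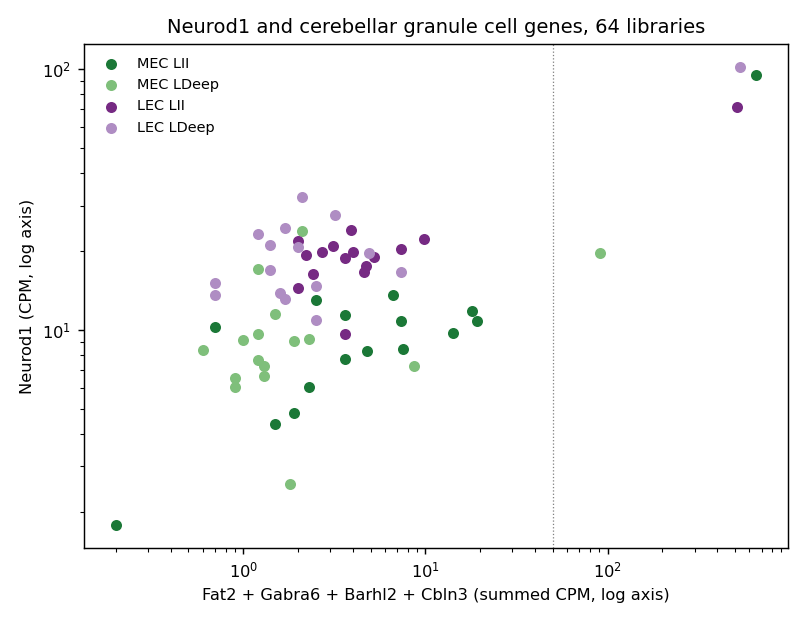
Neurod1 (vertical axis, CPM of total counts, log scale) against the summed CPM of Fat2, Gabra6, Barhl2 and Cbln3 (horizontal axis, log scale) in the 64 libraries, coloured by region and layer. The dotted line marks 50 CPM. The 4 libraries to its right hold 19.7 to 102 CPM of Neurod1, and to its left the LEC libraries lie mostly above those of the MEC.

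The layer difference of Neurod1 changed with age. LII minus LDeep was 1.21 (SE 0.38) higher at P23/P45 than at P2/P9 (adjusted p = 0.0351, 8.8% of all genes called), and it was the 1 member called. With the 8 libraries left out the change was 1.09 (SE 0.18, adjusted p = 3.1e-05, 11.4% of all genes called). The call was lost in 10 of 16 fits that left out the samples of 1 age and number, and the change fell to 0.74 (adjusted p = 0.299) without P23 replicate 2, whose MEC LII library held granule cell genes. It was not called by limma voom (1.07, adjusted p = 0.0937), nor in a fit of the MEC samples only (1.77, adjusted p = 0.0871) or of the LEC samples only (0.58, adjusted p = 0.645). In the LEC, LII held 3.21, 3.97, 4.01, 4.46 and 4.21 log2 CPM at P2 and LDeep 4.42, 3.93, 4.28, 5.00 and 4.76, whereas at P23 LII held 4.26, 4.61 and 4.31 and LDeep 3.97, 3.60 and 3.89. At P23 every LII library thus lay above every LDeep library, and at P2 the layers overlapped with LDeep reaching higher. At P23 the LFC of LII over LDeep was 1.58 (SE 0.44, adjusted p = 0.00486) in all libraries and 0.76 (SE 0.20, adjusted p = 0.00355) without the 8. At P2 it was -0.81 (SE 0.34, adjusted p = 0.0894) and -0.88 (SE 0.16, adjusted p = 4.3e-05). At P45 it was not called in either set.

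Tcf12 (chr8:78345754-78655856, minus strand, 21 exons), also known as HEB, is a dimer partner of the factors above. It was higher in LII than in LDeep by 0.43 (SE 0.04, adjusted p = 1.4e-12), or 1.35-fold. The study tested genes between layers in the MEC samples and lists Tcf12 among its transcription factors that differ between layers. The layer directions of Tcf12 and of the other members in the MEC are therefore not independent evidence. In the LEC at P9, LII held 6.15, 6.11, 6.0 and 6.15 log2 CPM and LDeep 5.26, 5.45, 5.54 and 5.24. In the MEC at P9, LII held 6.10, 5.72, 6.0 and 5.62 and LDeep 5.40, 5.25, 5.29 and 5.07. The layers did not overlap in either region at P9, P23 or P45, while at P2 they did in both. The LFC was 0.20 (SE 0.08, adjusted p = 0.0589) at P2, 0.67 (SE 0.09, adjusted p = 1.6e-08) at P9, 0.43 at P23 and 0.44 at P45, and at P2 it was 0.24 (SE 0.08, adjusted p = 0.0239) with the 8 libraries left out. Tcf12 fell by 0.37 (SE 0.04, adjusted p = 4.2e-11) with age. From P2 to P9 it fell by 0.47 (SE 0.06, adjusted p = 4.1e-10). Its region difference of -0.13 (SE 0.04, adjusted p = 0.0372) was small, and it was lost in 10 of 16 fits that left out the samples of 1 age and number.

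Tcf4 (chr18:65285320-65507979, plus strand, 17 exons) is an E protein whose human counterpart is mutated in Pitt-Hopkins syndrome. It fell by 0.31 (SE 0.10, adjusted p = 0.00337) with age and was 0.27 (SE 0.10, adjusted p = 0.0481) higher in the MEC than in the LEC. At P9 MEC LII held 8.19, 8.12, 8.06 and 8.35 log2 CPM, MEC LDeep 7.55, 7.77, 7.70 and 7.29, LEC LII 7.77, 7.51, 7.67 and 8.17, and LEC LDeep 7.11, 6.97, 7.53 and 7.53. MEC LII was thus above MEC LDeep at P9 without overlap. The LFC of LII over LDeep was 0.55 (SE 0.19, adjusted p = 0.0236) at P9, but over all ages 0.21 (SE 0.10, adjusted p = 0.0575). Without the 8 libraries it was 0.37 (SE 0.07, adjusted p = 9.0e-06). The 3 libraries with over 1000 CPM of Rn45s (MEC LDeep P2, LEC LDeep P45 and LEC LII P45) held 8.79, 8.26 and 8.0 log2 CPM of Tcf4, each the highest of its group. Whether Rn45s and Tcf4 are related was not tested. The region difference was lost in 12 of 16 fits that left out 1 age and number, with LFC from 0.22 to 0.31.

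Id3 (chr5:154489603-154491172, plus strand) showed the largest layer difference of the members. It was 1.72 (SE 0.12, adjusted p = 1.0e-17) higher in LII, or 3.29-fold. At P9 LEC LII held 6.85, 6.55, 6.87 and 6.10 log2 CPM and LEC LDeep 2.97, 3.84, 3.59 and 3.52, and MEC LII held 5.92, 5.83, 6.85 and 6.05 against 3.50, 4.04, 4.95 and 2.90 in MEC LDeep. The layers did not overlap in either region at P9, P23 or P45, and in the LEC they did not at P2. The LFC was 1.03 (SE 0.21) at P2, 2.66 (SE 0.25) at P9, 1.53 (SE 0.27) at P23 and 1.65 (SE 0.23) at P45, all with adjusted p of 0.000159 or less. Without the 8 libraries it was 1.26 (SE 0.18, edgeR adjusted p = 3.5e-07) at P2. In LDeep, Id3 was lowest at P9, with means of 3.85 ± 0.87 (SD, n = 4) in the MEC and 3.48 ± 0.37 (SD, n = 4) in the LEC, against 5.24 ± 0.51 and 5.10 ± 0.38 (SD, n = 5) at P2 and 5.14 ± 0.32 and 4.69 ± 0.45 (SD, n = 3) at P23. In LII the means at P9 were 6.16 ± 0.47 and 6.59 ± 0.36 (SD, n = 4), with 6.44 ± 0.24 and 6.48 ± 0.25 (SD, n = 3) at P23. The layer difference was 1.4 (SE 0.17) in the MEC and 2.03 (SE 0.17) in the LEC, and the difference between them was not called (-0.62, SE 0.23, adjusted p = 0.214). Over both layers Id3 fell by 0.65 (SE 0.16, adjusted p = 0.000372) from P2 to P9 and rose by 0.61 (SE 0.18, adjusted p = 0.00217) from P9 to P23.

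Id1 (chr3:148215588-148216715, plus strand) was 1.18 (SE 0.10, adjusted p = 3.7e-15) higher in LII, or 2.27-fold. At P23 LEC LII held 5.65, 5.01 and 4.85 log2 CPM and LEC LDeep 4.04, 3.70 and 3.19, and MEC LII held 5.26, 5.14 and 5.27 against 4.05, 3.64 and 3.63 in MEC LDeep, again without overlap. The LFC was 0.50 (SE 0.17, adjusted p = 0.0302) at P2, 1.38 (SE 0.20) at P9, 1.51 (SE 0.22) at P23 and 1.34 (SE 0.19) at P45. Without the 8 libraries it was 0.74 (SE 0.16, edgeR adjusted p = 0.000322) at P2. Id1 rose by 0.26 (SE 0.10, adjusted p = 0.0128) with age and Id3 by 0.29 (SE 0.12, adjusted p = 0.0201). In fits of the MEC alone and the LEC alone neither rise was called, with adjusted p of 0.0623 to 0.155, and for Id3 it was also lost when the 4 samples of 1 age and number were summed (0.17, adjusted p = 0.205).

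Markers of surface tissue and vessels moved with Id1 and Id3. Besides the meningeal genes given above, 8 of 8 endothelial and 7 of 7 pericyte and smooth muscle genes were higher in LII, as were 9 of 10 astrocyte genes. Among all genes 23.5% were higher and 30.5% lower. Also higher were 4 of 4 tested choroid plexus and ependyma genes, 3 of 3 of dentate granule cells, 5 of 7 of microglia and 3 of 5 of dividing cells. Lower in LII were 4 of 7 oligodendrocyte genes, 2 of 7 of GABAergic neurons and 2 of 4 of excitatory neurons. Summed endothelial markers ranged from 173 to 525 CPM in LII (median 437) and from 135 to 407 CPM in LDeep (median 216). The lowest LII value was that of MEC LII P2 replicate 3 and the highest LDeep value that of MEC LDeep P2 replicate 1. Of the 8 endothelial genes none was at 0 in any library, and of the meningeal genes Col1a2 was at 0 in 11, Aldh1a2 in 4, Lum in 3 and Foxd1 in 1. In MEC LDeep P2 replicate 1, where the 12 meningeal genes summed to 1285 CPM, Id3 was 6.0 log2 CPM and lay above the 4.59 to 5.34 of the other 4 libraries of its group. In the library labelled MEC LII P2 replicate 3 the same genes summed to 73.1 CPM, and its Id3 of 5.90 lay below the 6.27 to 6.50 of replicates 2, 4 and 5 but above every LDeep library of P2 except MEC LDeep P2 replicate 1. The part of meninges and vessels in the layer difference was not tested.

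**Figure D5:**
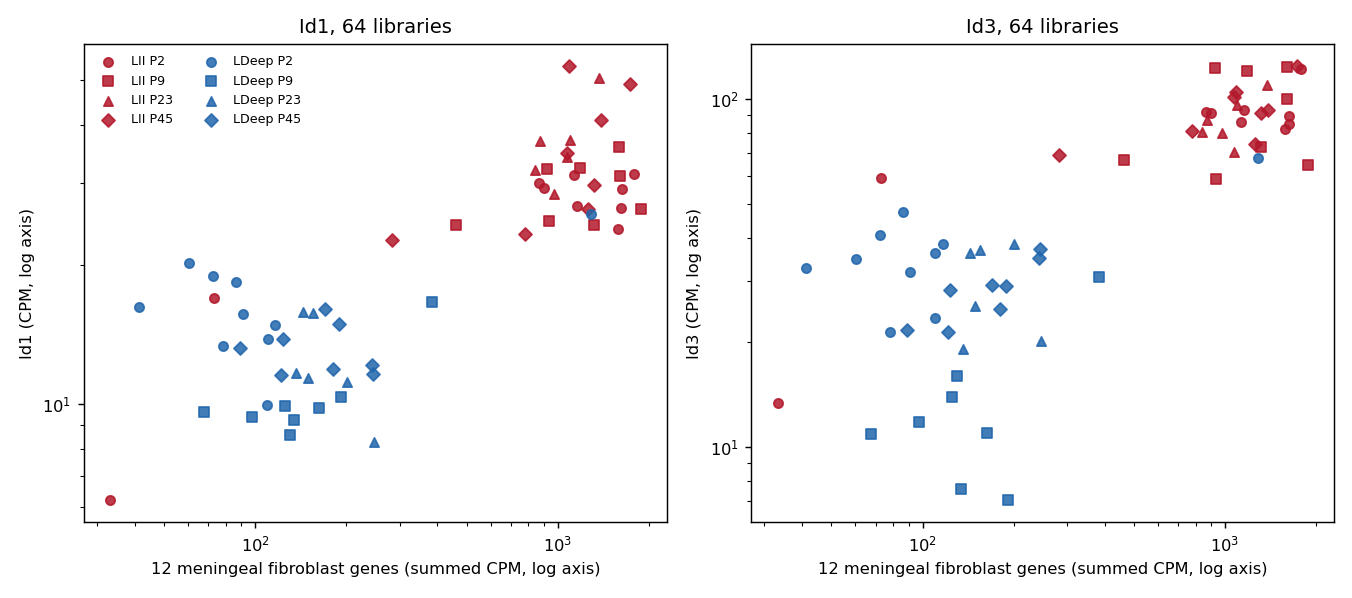
Id1 (left) and Id3 (right) on the vertical axes against the summed level of 12 meningeal fibroblast genes on the horizontal axes, all in CPM of total counts on log scales, for 64 libraries coloured by layer and shaped by age. LII libraries lie mostly at the upper right, and the library labelled MEC LII P2 replicate 1, with 33.2 CPM of meningeal genes, at the lower left. The LDeep library among them is MEC LDeep P2 replicate 1, with 1285 CPM of meningeal genes.

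Id4 (chr17:16692557-16695126, minus strand), known from astrocytes and neural progenitors, rose by 0.86 (SE 0.20, adjusted p = 0.000141) from the early to the late ages, or 1.82-fold. It first fell by 1.30 (SE 0.28, adjusted p = 9.0e-05) from P2 to P9 and then rose by 1.4 (SE 0.31, adjusted p = 9.9e-05) from P9 to P23. In MEC LII the libraries held 2.88, 2.98, 3.46 and 3.68 log2 CPM at P9 and 5.05, 5.01 and 5.04 at P23. In LEC LII they held 3.54, 3.38, 3.33 and 3.79 at P9 and 4.98, 4.89 and 4.74 at P23. LII did not overlap between P9 and P23 in either region. At P2 the spread was wide. MEC LII ranged from 2.62 to 6.99, with its highest value in the library that lacked Slc17a7, and MEC LDeep from 2.11 to 6.28. The 10 astrocyte markers summed to a median of 1377 CPM at P2, 2476 at P9, 4782 at P23 and 5060 CPM at P45. Of these markers 9 of the 10 rose with age, while 5 of 5 genes of dividing cells fell. Among all genes 41% were higher and 40.6% lower at the late ages. Their part in the Id4 values was not tested. With the 8 libraries left out, Id4 was lower in LII at P2 (LFC -1.0, SE 0.31, adjusted p = 0.0165), a difference of -0.22 (adjusted p = 0.715) in all 64. Neither a layer difference over all ages (LFC 0.21, SE 0.20, adjusted p = 0.405) nor a region difference (0.15, SE 0.21, adjusted p = 0.705) was called.

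Id2 (chr6:44360077-44361908, minus strand), an Id gene known from cortical neurons, was 0.38 (SE 0.09, adjusted p = 0.00162) lower in the MEC, or 1.31-fold. In LII at P23 the MEC held 6.26, 6.25 and 6.28 log2 CPM and the LEC 6.66, 6.82 and 6.55, and at P9 the MEC held 5.44, 5.57, 6.36 and 5.99 and the LEC 6.52, 6.46, 6.55 and 6.47. LEC LII thus lay above MEC LII at P9 and P23 without overlap, whereas at P45 the LEC LII library with granule cell genes and 1364 CPM of Rn45s (6.08) fell within the MEC LII range of 5.95 to 6.22. In LDeep the regions overlapped at every age. Id2 was the 1 Id gene with no called difference between early and late ages (LFC -0.03, SE 0.09, adjusted p = 0.758). Within the LEC, LII minus LDeep was 0.29 (SE 0.13, adjusted p = 0.0707), and without the 8 libraries 0.31 (SE 0.11, adjusted p = 0.0241). Within the MEC it was 0.03 (SE 0.13, adjusted p = 0.879). The difference of -0.26 (SE 0.18) was not called (adjusted p = 0.596).

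Step by step, 7 of the 10 members changed between P2 and P9 and all 7 fell (63.4% of all genes called in either direction). Without the 8 libraries the falls of Neurod6 (LFC -0.36, SE 0.10, adjusted p = 0.00149) and Id1 (-0.25, SE 0.11, adjusted p = 0.0432) were called too. Between P9 and P23, 4 changed (64.6% of all genes called), of which Bhlhe22 fell and Id1, Id3 and Id4 rose. A fall of Tcf12 was also called without the 8 libraries (-0.16, SE 0.065, adjusted p = 0.0299). Between P23 and P45 no member was called by edgeR (3.85% of all genes called, 482 genes, with 1961 at an unadjusted p under 0.05). For the layers, the counts of members called were 3 for P2 (19.2% of all genes), 4 for P9 (33%), 4 for P23 (25.9%) and 3 for P45 (26.4%). Id1 and Id3 were called at each of the 4 ages and Tcf12 at P9, P23 and P45. Without the 8 libraries the calls of Neurod1, Neurod6, Tcf12 and Id4 were added at P2 and those of Neurod2, Neurod6 and Bhlhe22 at P9. Bhlhe22 was then also called at P23 (LFC 0.64, SE 0.22, adjusted p = 0.0253) and Neurod6 at P45 (-0.55, SE 0.17, adjusted p = 0.0121).

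Other bHLH genes were counted from fixed lists. Of 13 further proneural and neuronal bHLH genes 8 passed the filter on low counts, and 3 of these rose and 4 fell with age (81.6% of all genes called). Nhlh2 fell by 3.27 (SE 0.25, adjusted p = 7.4e-18) and Bhlhe40, a circadian and activity-responsive repressor, rose by 2.70 (SE 0.09, adjusted p = 5.8e-34). Between layers 2 were higher in LII, among them Nhlh1 (2.04, SE 0.33, adjusted p = 7.7e-07), and 1 was lower (54% of all genes called). Between regions 2 were higher and 1 lower in the MEC, where Nhlh1 had an LFC of 1.74 (SE 0.30, adjusted p = 1.8e-05) and Nhlh2 one of -0.91 (SE 0.26, adjusted p = 0.0098), and 15.4% of all genes were called. Tcf3, the third E protein, fell by 1.01 (SE 0.05, adjusted p = 6.1e-26) with age. Olig2 and Olig1, bHLH factors of the oligodendrocyte lineage, were lower in LII, with LFCs of -0.51 (SE 0.08) and -0.45 (SE 0.08), and higher in the MEC by 0.26 and 0.38.

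Of 9 Hes and Hey genes, a family in which several repressors act downstream of Notch, 8 were tested. With age 3 rose and 3 fell, where 81.6% of all genes were called, and Hes6, which promotes neuronal differentiation, fell by 3.14 (SE 0.10, adjusted p = 2.1e-34). In LII 3 were higher, among them Hey2 (0.67, SE 0.07), and 2 lower, among them Hes1 (-0.31, SE 0.10), where 54% of all genes were called. In the MEC none was higher and 3 were lower, among them Heyl (-0.52, SE 0.15) and Hes5 (-0.40, SE 0.08), where 15.4% of all genes were called.

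Of 11 BMP ligands and antagonists 8 were higher in LII and 2 lower, against 23.5% and 30.5% of all genes. Bmp5 was 3.68 (SE 0.35, adjusted p = 4.7e-13) and Bmp6 3.08 (SE 0.23, adjusted p = 1.3e-16) higher. Of 11 BMP receptors and Smads 7 were higher and 1 lower, led by Smad6, an inhibitory Smad (2.03, SE 0.17, adjusted p = 4.6e-15), and Acvrl1, a receptor of endothelium (0.78, SE 0.09). The meningeal and endothelial markers rose in LII in the same libraries, and their part in the BMP values was not tested. With age 6 of the ligands and antagonists rose and 1 fell (81.6% of all genes called), with Bmp4 (1.84, SE 0.23) and Bmp6 (1.46, SE 0.23) leading. Of the receptors and Smads 5 rose and 4 fell, and Bmpr1b (0.99, SE 0.06) and Acvrl1 (0.94, SE 0.09) rose most. Between regions 3 ligands and antagonists were higher in the MEC and 1 lower (Grem1 0.93, SE 0.13, and Bmp2 -0.52, SE 0.17), where 15.4% of all genes were called, and no receptor or Smad was called by edgeR.

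Genes with the pattern most like each member were sought over the 16 group means, among 9193 genes with a mean of at least 10 CPM. Bhlhe22 was most like Dpyd (r = 0.95), Tcf12 most like Prkd3 (r = 0.95), Id1 most like Kank2 (r = 0.97) and Id3 most like Islr (r = 0.96) and Kank2 (r = 0.96). Id4 was most like Alkbh5 (r = 0.93), Neurod2 most like Cln3 (r = 0.92), Tcf4 most like Zswim5 (r = 0.88) and Neurod6 most like Zfp238 (r = 0.82). Neurod1 and Id2 had the lowest best matches, LRRTM1 (r = 0.79) and Sema3a (r = 0.80). The groups share ages and libraries that stand apart, and these values describe likeness only.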

How the data were processed

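Ribosome-depleted, stranded total RNA of 64 samples was sequenced in pairs. The authors removed adapters with Trimmomatic 0.33, aligned to Rn6 with STAR 2.4.0 and counted pairs on RefSeq exons with featureCounts of Subread 1.4.6-p1, by strand, and the deposited values are these counts per gene, without normalization. A pair overlapping several genes was counted for each.

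Counts were tested with edgeR 4.0.16 in R 4.3.3 (quasi-likelihood test, TMM library sizes, filterByExpr, 16 group means, all 64 samples, no block) and adjusted by Benjamini-Hochberg over 12521 genes, threshold 0.05. The SE is the LFC divided by the square root of F. Fitted LFCs weigh counts and can differ from differences of mean log2 values. Member levels are log2 CPM after TMM scaling with a prior count of 2. Other genes, and members where so stated, are in CPM of total counts, where 1 count stood for 0.0874 to 0.257 CPM. Totals limit the precision by counting error only.

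Members and lists were chosen with earlier results of these data known. From the other lists, up to 2 genes per contrast were named, those with the largest LFC among called genes with at least 1 CPM. A gene that this rule names is not reported here. Likeness gives the highest Pearson r. The 8 libraries were set apart after seeing the data, by under 10 CPM of Slc17a7, over 50 CPM of summed granule cell genes, over 1000 CPM of Rn45s or, in LDeep, over 100 CPM of Col1a1.

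Other settings tried were RLE size factors, DESeq2 1.42.0, limma voom (limma 3.58.1) after quantile normalization, no filter, at least 10 counts in every sample, 1 region or 1 age only, the replicate number as a block, and leaving out each age and number. No replicates were alike within sampling noise (lowest chi-square per degree of freedom 3.08 over 100 pairs). Scripts were tested on simulated data with 200 changed genes. Bhlhe22 was not matched in the promoter table.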

Additional observations from a re-analysis of the deposited data

Results flagged for a closer look

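Of 120 combinations of a member with a group of 4 or 5 libraries, 9 held a library far from the others, and chance flags about 1 in 20. Of the 9, 4 fell in the library labelled MEC LII P2 replicate 1, with log2 CPM of -0.39 for Neurod2, -0.59 for Neurod6, 1.75 for Bhlhe22 and 3.69 for Id3, each the lowest of its group. Neurod1 stood high in LEC LII P45 replicate 2 (6.18) and LEC LDeep P45 replicate 2 (6.71), both with granule cell genes above 500 CPM. In MEC LDeep P45 replicate 1 Neurod6 was high at 7.69, against 7.47 to 7.50 in the other 3 libraries. Bhlhe22 was high in MEC LII P9 replicate 4 (6.93) and Id1 in MEC LII P9 replicate 3 (4.95).

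The layer difference of Neurod1 changed between early and late ages by 1.209 on the log2 scale, as tested by an interaction term (edgeR adjusted p = 0.0351). The call was lost by limma voom (1.07, adjusted p = 0.0937), with the MEC samples only (1.77, adjusted p = 0.0871), with the LEC samples only (0.58, adjusted p = 0.645), and in 10 of 16 fits that left out the samples of 1 age and number, where the lowest value was 0.737.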

How the results depend on the processing

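For 80 member values (10 members in 8 contrasts), 29 alternatives gave 2044 values, of which 1925 kept their side of the threshold, 74 lost a call, 43 gained one and 2 changed sign after a call. Both of these were the age difference of Neurod1, which was -0.042 without the libraries with granule cell genes and -0.133 without all 8 that stand apart, chosen after seeing the data. The cause was not tested.

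Counts of called members moved as follows. For layer by age, limma voom and the MEC samples only called 0 in place of 1. The MEC samples only called 3 for age in place of 9 and 3 for layer in place of 5, with fewer samples. At P2 the layers gave 5 members with the replicate block and without granule cell libraries, 7 without all 8, and 1 with the samples of that age only, in place of 3. In place of 4, the samples of 1 age gave 7 at P9 and 8 at P23, and leaving out the 8 gave 7 at P9 and 7 in the LEC. Member counts under these other settings were not compared with the share of all genes called there. They therefore show no change special to the members. For layer by region and for region by age, leaving out the library almost without Slc17a7, or all 8, gave 1 in place of 0. Requiring 10 counts in every sample, which tests fewer genes, gave 4353 genes for layer, 1232 at P2, 2430 at P9, 2137 at P23, 2046 at P45 and 3312 (MEC) and 2892 (LEC) within regions, in place of 6767, 2409, 4128, 3239, 3310, 5112 and 4835. Layer by age gave 434 genes in the MEC and 493 in the LEC alone in place of 1102. The samples of P2 only gave 1250 genes for layer. Layer by region gave 103 genes in place of 156 without granule cell libraries. Leaving out each age and number gave 283 to 629 genes from P23 to P45, 1437 to 2333 genes and 1 to 5 members for layer at P2, 2065 to 3695 genes at P23, 63 to 218 genes and 0 to 1 members for layer by region, 302 to 666 genes and 0 to 1 members for region by age, and 0 to 1 members for layer by age. Fits with at least 10 counts everywhere gave no value for Neurod2 and Neurod6.

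Equal replicate numbers were tested as a replicate block. Between layers, deviations from the group means of same-numbered samples correlated above 0.1 in 18 of 32 pairs (mean r 0.16). For other numbers they did so in 27 of 100 pairs (mean r -0.053). The best match had the same number in 95 of 192 cases, each chosen among a group of 3 to 5 libraries. The study ties the number to both layers of an animal for its miRNA samples of the MEC, and no source used here does so for these libraries or the LEC. The numbers were not taken as pairing. The replicate block gave 286 genes in place of 156 for layer by region and called Id2 in the LEC (0.30, adjusted p = 0.0199). Summing the 4 samples of a number gave 60 genes from P23 to P45 in place of 482, and the age differences of Neurod1 (0.54, adjusted p = 0.0991) and Id3 (0.17, adjusted p = 0.205) were not called.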
